A study of Mus musculus with 32 samples.

Results

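CXC chemokines are small secreted proteins with a Cys-X-Cys motif near the amino terminus, and they direct leukocyte migration through G protein-coupled receptors. The members described here were the 8 genes Cxcl1, Cxcl2, Cxcl3, Cxcl9, Cxcl10, Cxcl11, Cxcl16 and Pf4. They were chosen by name, and their Ensembl identifiers were matched to mouse gene symbols. They are 8 of 54281 genes in the count table, and all 8 were among the 15257 genes that passed the filter on low counts.

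Transcript levels were measured by RNA sequencing in mouse bone marrow-derived macrophages (BMDMs), grown from bone marrow in medium with L929 supernatant. The cells carried either 2 loxP-flanked Trex1 alleles (Trex1 FL/FL) or 1 such allele and 1 wild type allele (Trex1 WT/FL). TREX1 is a cytosolic DNA exonuclease whose loss lets self DNA activate the DNA sensor cGAS and its adaptor STING. Both genotypes had the tamoxifen-inducible Cre-ERT2 knocked into 1 allele of the ubiquitously active Rosa26 locus, so the controls also expressed Cre-ERT2 and lost 1 Trex1 copy on treatment. Cells received 2 µg/ml (Z)-4-hydroxytamoxifen (4-OHT) for 22 h or were left untreated, and RNA was taken on days 1, 2, 3 and 4 after the exposure. Genotype, treatment and day gave 16 groups of 2 libraries each, 32 libraries in all. The labels do not say whether both libraries of a group came from separate animals or cultures, so p-values measure only the spread between these samples, which may be technical.

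Library totals ran from 35120505 to 63760884 counts, with a median of 44841991, and the 2 libraries of every group differed by more than sampling noise. Trex1 had 0 counts in both 4-OHT-treated Trex1 FL/FL libraries on 3 of the 4 days; the exception was day 2, with 14 and 9. The 4-OHT-treated Trex1 WT/FL libraries held 758 to 3622 Trex1 counts. All 31-base words of Trex1 transcripts also occur in the overlapping gene Atrip, so the split of reads between these genes is uncertain. The 7 macrophage markers fixed for this check, among them Adgre1, Csf1r and Lyz2, were detected in all groups, with a summed level of 15024 to 47901 CPM (counts scaled to a common library size).

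As background, Cxcl9, Cxcl10 and Cxcl11 are induced by interferons, bind CXCR3 and attract T cells and NK cells. Cxcl1, Cxcl2 and Cxcl3 carry the amino acids glutamate, leucine and arginine (ELR) just before the first cysteine, bind CXCR2 and attract neutrophils, and NF-κB controls their transcription. Cxcl16 is a membrane-bound ligand of CXCR6 that metalloproteases can shed, and Pf4 (platelet factor 4, CXCL4) is best known from platelet granules.

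The coding stretch around the first cysteines is shown because it separates the neutrophil-attracting members from the rest. Each line was read from the canonical GENCODE transcript of the gene on GRCm39, 5′ to 3′, and the capitals mark the 3 codons before the first cysteine codon. They encode ELR in Cxcl1, Cxcl2 and Cxcl3 and in none of the other 4 stretches.
Cxcl1: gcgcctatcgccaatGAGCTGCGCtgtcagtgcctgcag
Cxcl2: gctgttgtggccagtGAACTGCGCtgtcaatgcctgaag
Cxcl3: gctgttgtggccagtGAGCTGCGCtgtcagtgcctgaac
Cxcl9: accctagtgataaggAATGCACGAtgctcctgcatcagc
Cxcl10: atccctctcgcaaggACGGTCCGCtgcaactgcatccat
Cxcl16: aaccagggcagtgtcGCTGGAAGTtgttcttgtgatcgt
Pf4: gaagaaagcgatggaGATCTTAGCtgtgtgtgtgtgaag
The canonical Cxcl11 transcript is annotated as a loss-of-function form in this reference, and no Cys-X-Cys frame was found in it, so none is shown.

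Of the 8 genes, 7 lie on mouse chromosome 5 (GRCm39). Pf4 (chr5:90918479-90922110), Cxcl3 (chr5:90933962-90937459), Cxcl1 (chr5:91039094-91040974) and Cxcl2 (chr5:91051730-91053797) are on the plus strand. Cxcl9 (chr5:92469206-92475945), Cxcl10 (chr5:92494497-92496748) and Cxcl11 (chr5:92507403-92513344) are on the minus strand, and Cxcl16 (chr11:70344517-70352620) is on the minus strand of chromosome 11.

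Windows upstream of the annotated gene start are shown for the member that led the interferon-driven group and for the 3 ELR members. They were read from GRCm39 on the strand of the gene, 5′ to 3′, and the capitals mark matches to the interferon-stimulated response element (ISRE) core, the NF-κB consensus and the AP-1 site. The Cxcl10 window (chr5:92496809-92496968, minus strand) spans bases -220 to -61 from the gene start. The other windows span bases -100 to -26, at chr5:91038994-91039068 for Cxcl1, chr5:91051630-91051704 for Cxcl2 and chr5:90933862-90933936 for Cxcl3, all on the plus strand.
Cxcl10: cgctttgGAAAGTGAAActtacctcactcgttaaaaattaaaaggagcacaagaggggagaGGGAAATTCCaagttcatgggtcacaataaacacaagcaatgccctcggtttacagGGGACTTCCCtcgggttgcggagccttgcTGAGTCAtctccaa
Cxcl1: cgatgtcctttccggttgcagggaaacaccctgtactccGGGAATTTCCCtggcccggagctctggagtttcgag
Cxcl2: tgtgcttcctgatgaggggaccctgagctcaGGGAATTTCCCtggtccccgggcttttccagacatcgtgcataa
Cxcl3: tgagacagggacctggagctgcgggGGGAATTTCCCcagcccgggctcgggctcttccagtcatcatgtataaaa

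In the Cxcl10 window the ISRE core lies first, followed by a pair of NF-κB matches and the AP-1 match. The same 11 capital letters stand in the Cxcl1, Cxcl2 and Cxcl3 windows, where the NF-κB consensus was matched on both strands in overlapping positions. Motifs were searched on both strands from 250 bases before to 50 bases after the start of 1 transcript in each of 21770 mouse genes. For Pf4 and Cxcl16 that transcript starts inside the gene span given above, so their windows do not lie at its outer end. The ISRE core GAAANNGAAA was found in 3.84% of all promoters and, among the 8 members, in Cxcl10. The NF-κB consensus was found in 4.87% of promoters and in Cxcl1, Cxcl2, Cxcl3 and Cxcl10. The AP-1 site TGANTCA stood in 7.14% of promoters and in Cxcl9 and Cxcl10. The STAT site TTCNNNGAA occurred in 8.81% of promoters and in no member, which says only that these letters are absent from the windows. TATAAA occurred in 13.2% of promoters and in Cxcl3 and Cxcl9. The Cxcl11 window starts at an annotated end that belongs to the loss-of-function transcript, so its lack of matches is uncertain.

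**Figure D1:**
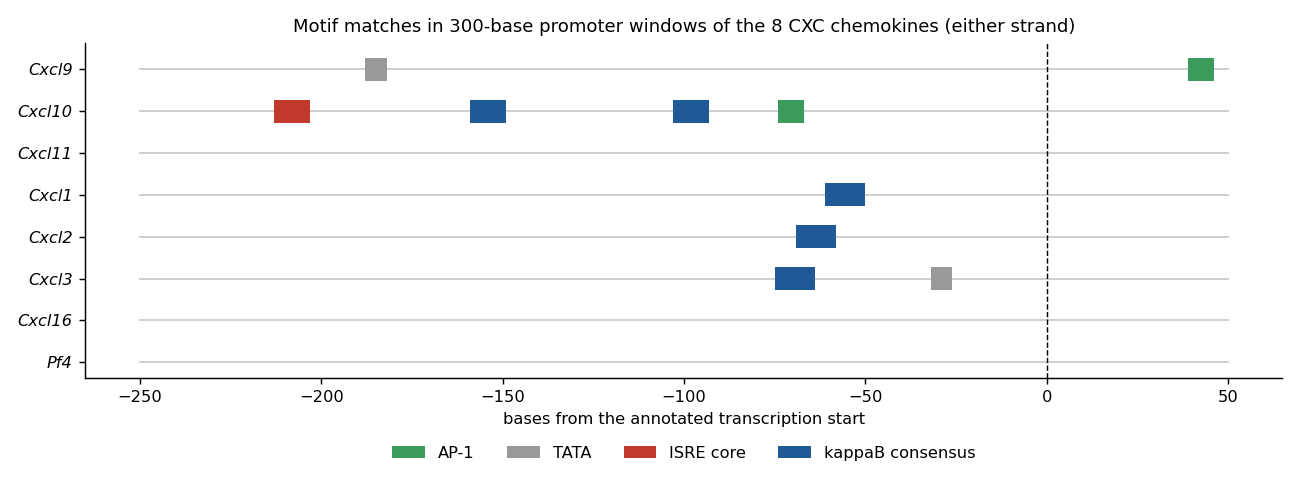
Positions of motif matches in the promoter window of each of the 8 members, with distance from the annotated transcript start in bases on the horizontal axis and one line per gene. Coloured blocks are matches on either strand; the ISRE core appears in Cxcl10 and the NF-κB consensus in Cxcl1, Cxcl2, Cxcl3 and Cxcl10.

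All levels are CPM after trimmed mean (TMM) scaling of the libraries. A gene passed the test when edgeR's quasi-likelihood test gave a Benjamini-Hochberg adjusted p below 0.01 over all 15257 genes, and it was called when its absolute log2 fold change was also above 1.5. In bulk samples, fewer cells that express a gene and less RNA per cell cannot be told apart.

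The first question was how the chemokines differed between 4-OHT-treated Trex1 FL/FL and 4-OHT-treated Trex1 WT/FL BMDMs on each day. Cxcl10 and Cxcl11 were higher in the Trex1-deleted cells from day 2 to day 4 and Pf4 was lower on the same days. Cxcl16 was higher on day 4, and no ELR member passed the test on any day. On day 1, 0 of 8 members passed by edgeR, by DESeq2 or at an unadjusted p below 0.05, beside 0.0197% of all genes passing and 0.0131% called. On day 2, 3 members passed (8.17% of all genes) and 2 were called (0.583%). On day 3, 3 members passed (12.1% of all genes) and 1 was called (0.872%). On day 4, 4 members passed (21.5% of all genes) and 3 were called (2.98%).

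Cxcl10 (IP-10) was the most abundant interferon-driven member. On day 1 its level was 22.3 and 14.5 CPM in 4-OHT-treated Trex1 FL/FL libraries and 12.6 and 14.7 CPM in 4-OHT-treated Trex1 WT/FL libraries. On day 2 it was 777 and 835 CPM (806 ± 41.1, SD, n = 2) against 134 and 148 CPM (141 ± 10.2, n = 2). On day 3 it was 269 and 225 CPM against 84.1 and 111 CPM. Day 4 levels were 200 and 179 CPM (190 ± 14.6, n = 2) against 13.5 and 16.8 CPM (15.1 ± 2.31, n = 2). The 2 deleted libraries lay above all 6 other libraries of the same day on days 2, 3 and 4, and the groups overlapped on day 1. The other 6 libraries held 103 to 148 CPM on day 2, 56.5 to 111 CPM on day 3 and 9.55 to 21.1 CPM on day 4.

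The log2 fold change of Cxcl10 was 0.43 on day 1 (SE 0.28, edgeR adjusted p = 1). It was 2.52 on day 2 (SE 0.26, edgeR adjusted p = 2.18e-06), 1.34 on day 3 (SE 0.25, adjusted p = 0.000904) and 3.65 on day 4 (SE 0.28, adjusted p = 2.02e-08). The day 4 difference was thus 12.6-fold, while the Cxcl10 level itself was lower on day 4 than on day 2 in both genotypes. Without 4-OHT-treated Trex1 WT/FL replicate 1 the day 3 value was 1.15 (adjusted p = 0.0250), without Trex1 FL/FL replicate 1 it was 1.21 (adjusted p = 0.0127), and with only the day 3 libraries compared it was 1.35 (adjusted p = 0.0293), so the value misses the threshold in these settings.

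Cxcl11 (I-TAC), the third ligand of CXCR3, was sparse. On days 1 to 4 the 4-OHT-treated Trex1 FL/FL libraries held 7 and 3, then 164 and 118, then 126 and 198, then 152 and 80 Cxcl11 counts. The 4-OHT-treated Trex1 WT/FL libraries held 6 and 5, 18 and 32, 24 and 21, and 4 and 10 Cxcl11 counts on the same days. The deleted libraries were above all others of the same day from day 2 onward. Fold changes were 2.90 on the log2 scale on day 2 (SE 0.57, edgeR adjusted p = 0.000562), 2.93 on day 3 (SE 0.57, adjusted p = 0.000426) and 4.57 on day 4 (SE 0.65, adjusted p = 2.80e-06). The Cxcl11 call was lost on day 2 (adjusted p = 0.0203) and on day 3 (adjusted p = 0.0126) when 4-OHT-treated Trex1 WT/FL replicate 1 of that day was left out. On day 4 its value was 3.92 without 4-OHT-treated Trex1 WT/FL replicate 1, 5.56 without Trex1 WT/FL replicate 2 and 4.12 without Trex1 FL/FL replicate 1, and it passed in each of these fits.

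Cxcl9 (MIG), classically induced by interferon-γ, passed the test on no day. Its counts in 4-OHT-treated Trex1 FL/FL libraries were 4 and 0 on day 1, 96 and 71 on day 2, 25 and 55 on day 3 and 11 and 16 on day 4. Those in 4-OHT-treated Trex1 WT/FL libraries were 1 and 0, 52 and 35, 73 and 71, and 18 and 28. The deleted libraries were the highest of day 2 (1.97 and 2.38 CPM against 0.623 to 1.13 CPM) and the lowest of day 3 (0.731 and 0.940 CPM against 1.07 to 2.30 CPM). Neither difference passed: the log2 fold change was 1.30 on day 2 (95% interval 0.21 to 2.39, adjusted p = 0.123), -0.82 on day 3 (-1.91 to 0.27, adjusted p = 0.329) and -0.19 on day 4 (-1.42 to 1.03, adjusted p = 0.858). No fold is given for day 1, when Cxcl9 had 4 counts at most in any library and 0 in 5 of 8.

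**Figure D2:**
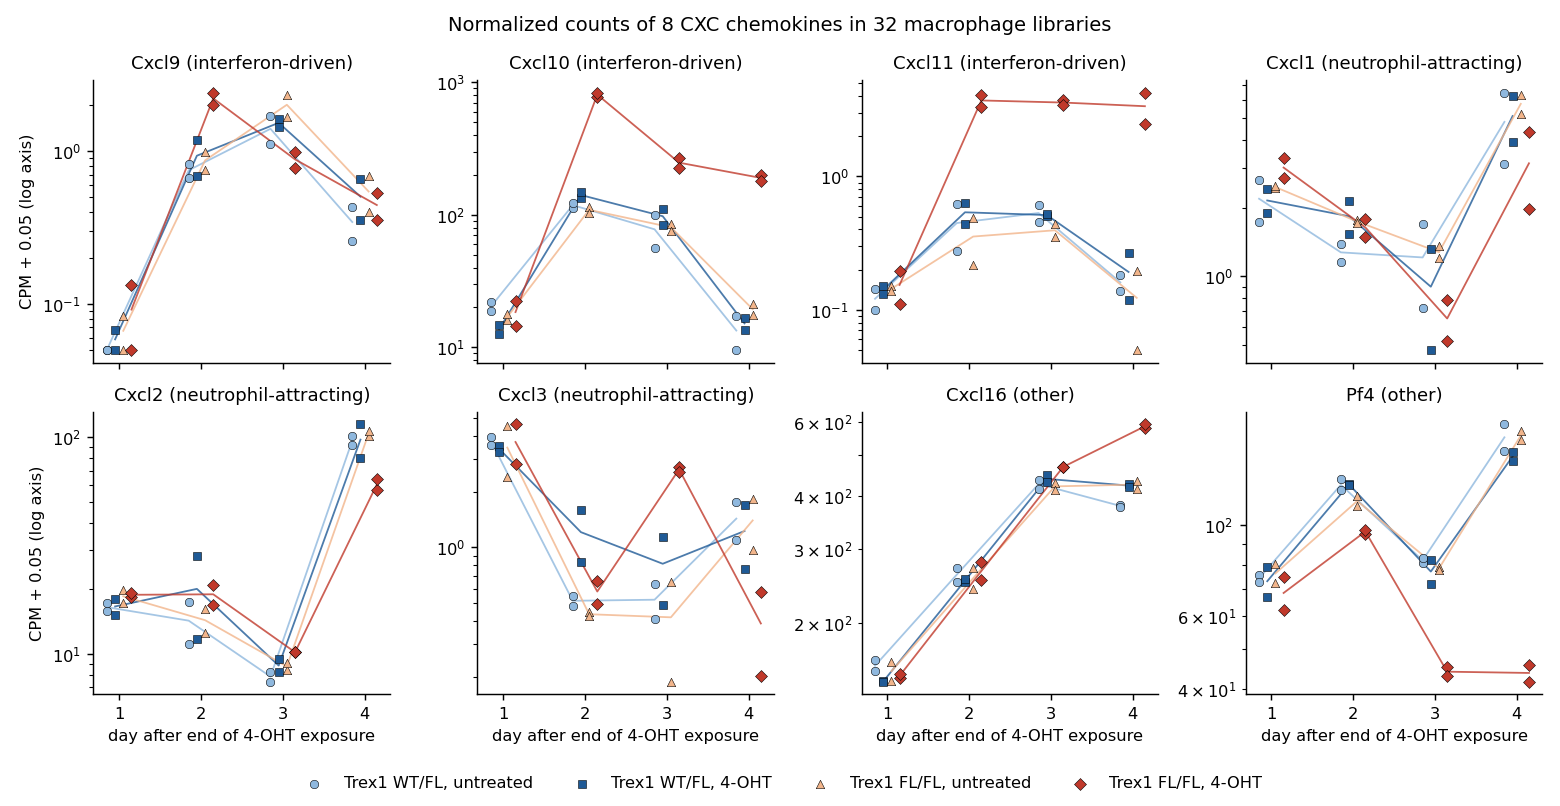
Levels of the 8 CXC chemokines on days 1 to 4 in the 4 combinations of genotype and treatment; the horizontal axis is the day after 4-OHT, with points offset by group, and the vertical axis is CPM + 0.05 on a log scale. Each point is 1 library and each line joins group means; Cxcl10 in 4-OHT-treated Trex1 FL/FL cells stands at 777 and 835 CPM on day 2, above all other groups, while Pf4 in the same cells is the lowest on days 2 to 4.

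Among the ELR members Cxcl2 (MIP-2) was the most abundant. In 4-OHT-treated Trex1 FL/FL libraries it held 18.3 and 19.0 CPM on day 1, 16.7 and 20.8 on day 2, 10.1 and 10.1 on day 3 and 56.8 and 64.0 on day 4. In 4-OHT-treated Trex1 WT/FL libraries the Cxcl2 levels were 15.1 and 17.9, 11.6 and 28.2, 9.36 and 8.17, and 114 and 80.3 CPM. On day 3 both deleted libraries lay above the 6 others (7.38 to 9.36 CPM), and on day 4 both lay under them (80.3 to 114 CPM). The day 4 difference of -0.69 (SE 0.27, 95% interval -1.27 to -0.12) had an edgeR adjusted p of 0.0660 and did not pass. On days 1 to 3 the Cxcl2 values ran from -0.09 to 0.20.

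Cxcl3 (DCIP-1) was lower than all other libraries of its day in the deleted cells on day 4 and higher on day 3. Its day 3 levels were 2.66 and 2.51 CPM in 4-OHT-treated Trex1 FL/FL libraries against 0.438 and 1.09 CPM in 4-OHT-treated Trex1 WT/FL libraries, and 0.139 to 1.09 CPM over all 6 others. Its day 4 levels were 0.526 and 0.151 CPM, from 19 and 5 counts, against 1.64 and 0.713 CPM, from 97 and 33 counts. Log2 fold changes were 1.77 on day 3 (SE 0.54, edgeR adjusted p = 0.0224) and -1.78 on day 4 (SE 0.61, adjusted p = 0.0306), so neither passed at 0.01. DESeq2 gave adjusted p = 0.00280 and 0.00662 for these values and passed both. With 1 library left out, the Cxcl3 value on day 3 ran from 1.24 (without Trex1 WT/FL replicate 1) to 2.55 (without replicate 2). On day 4 it ran from -2.95 (without Trex1 FL/FL replicate 1) to -1.05 (without Trex1 WT/FL replicate 1) and was -1.17 without Trex1 FL/FL replicate 2, and edgeR passed none of these.

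Cxcl1 (KC) held 0.424 to 6.41 CPM over the 32 libraries. In the 4-OHT-treated comparison its log2 fold changes from the first to the last day were 0.49, -0.18, -0.48 and -0.70, with SE of 0.43 to 0.51 and adjusted p of 0.244 or more. On day 1 both deleted libraries (2.67 and 3.26 CPM) lay above the 6 others (1.68 to 2.62 CPM). The 95% interval on day 4, -1.59 to 0.19, includes both no difference and a difference of more than 2-fold. Cxcl2 shares 7.59% of its 31-base words with Cxcl3 and with no other gene. Cxcl3 shares 5.46% of its words with 2586 genes, Cxcl2 among them, so that reads can be split between these, whereas Cxcl1 shares none.

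Cxcl16 held 579 and 590 CPM in 4-OHT-treated Trex1 FL/FL libraries on day 4 and 427 and 420 CPM in 4-OHT-treated Trex1 WT/FL libraries. Both deleted libraries were above the 6 others of that day (376 to 435 CPM). The log2 fold change was 0.47 (SE 0.06, edgeR adjusted p = 4.19e-07), while on days 1 to 3 it was 0.04, 0.08 and 0.09 and did not pass. Untreated Trex1 FL/FL libraries of day 4 were also above untreated Trex1 WT/FL libraries in Cxcl16, by 0.17 (edgeR adjusted p = 0.130), which did not pass. On day 3 the deleted libraries (468 and 469 CPM) were also above the 6 others (413 to 447 CPM). Cxcl16 overlaps Med11 and Zmynd15 on the opposite strand, and whether strand was used in counting is not given in the sources used here. These neighbours held 17.1 to 24.9 CPM and 6.76 to 54.2 CPM over the libraries.

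Pf4 was lower in the deleted cells by an estimated margin that was larger on each later day. Its levels in 4-OHT-treated Trex1 FL/FL libraries were 62.2 and 74.5 CPM on day 1, 95.3 and 97.5 on day 2, 45.1 and 42.9 on day 3 and 45.8 and 41.6 on day 4. In 4-OHT-treated Trex1 WT/FL libraries Pf4 held 79.3 and 66.8, 126 and 125, 82.4 and 71.7, and 143 and 150 CPM. The groups overlapped on day 1 and were apart on days 2, 3 and 4, also from the untreated libraries. Log2 fold changes were -0.09 on day 1 (edgeR adjusted p = 1), -0.38 on day 2 (SE 0.09, adjusted p = 0.00272), -0.81 on day 3 (SE 0.09, adjusted p = 2.06e-07) and -1.75 on day 4 (SE 0.09, adjusted p = 7.58e-14). The day 2 value missed the threshold whichever of the 4 libraries was left out, with adjusted p from 0.0212 to 0.0389. It also did so after subtraction of the untreated genotype difference, at -0.25 (adjusted p = 0.306).

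**Figure D3:**
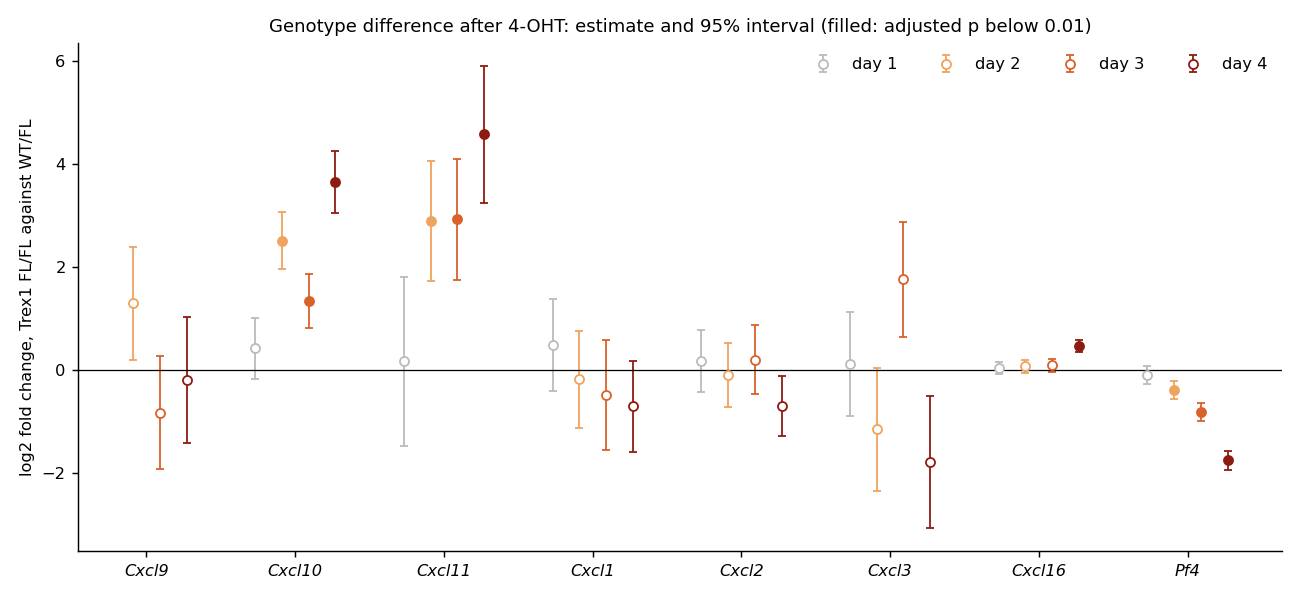
Log2 fold change of each CXC chemokine in 4-OHT-treated Trex1 FL/FL against 4-OHT-treated Trex1 WT/FL BMDMs, with one position per gene for each of the 4 days and bars for the 95% interval. Filled markers passed at an adjusted p below 0.01; Cxcl10 reached 3.65 and Pf4 -1.75 on day 4, and Cxcl9 on day 1 is not drawn because of its 0 to 4 counts.

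The second question was what 4-OHT did within a genotype. In Trex1 WT/FL cells 0 of 8 members passed between treated and untreated libraries on any day by edgeR or DESeq2, and 1, 1, 0 and 1 members had an unadjusted p below 0.05 on days 1 to 4. The log2 fold changes there ran from -0.57 to 1.32, and 0.00655%, 0.0918%, 0.341% and 0.216% of all genes passed. In Trex1 FL/FL cells, 0 members passed on day 1, with no unadjusted p below 0.05 and none by DESeq2, beside 0.0131% of all genes. On days 2, 3 and 4, 2, 4 and 4 members passed, where 11.1%, 15.7% and 21.4% of all genes did.

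Cxcl10 was higher with 4-OHT in Trex1 FL/FL cells by 2.89, 1.62 and 3.30 on the log2 scale on days 2, 3 and 4. Its untreated libraries held 115 and 103, 85.1 and 75.8, and 17.6 and 21.1 CPM on those days. Cxcl11 was higher by 3.59, 3.35 and 5.72, against untreated counts of 20 and 8, 12 and 14, and 0 and 5. Its day 2 value was 4.44 without untreated Trex1 FL/FL replicate 1 and 3.05 without replicate 2. Its day 4 value depends on the single untreated library with Cxcl11 reads, since it was 10.3 without untreated Trex1 FL/FL replicate 2 and 4.49 without replicate 1. These comparisons share the treated Trex1 FL/FL libraries with the genotype comparison and are not independent of it.

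Pf4 was lower with 4-OHT in Trex1 FL/FL cells by -0.83 on day 3 and -1.92 on day 4, and Cxcl16 was higher by 0.46 on day 4. Cxcl3 was the ELR member that passed in this comparison, at 2.77 on day 3 (SE 0.59, edgeR adjusted p = 0.00114), where untreated libraries held 24 and 5 counts and treated ones 91 and 147. Without untreated Trex1 FL/FL replicate 2 the value was 2.10 (adjusted p = 0.0324), and without replicate 1 it was 4.19. On day 4 the Cxcl3 value of -1.94 had an adjusted p of 0.0195 and that of Cxcl2, -0.78, an adjusted p of 0.0385, and neither passed.

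**Figure D4:**
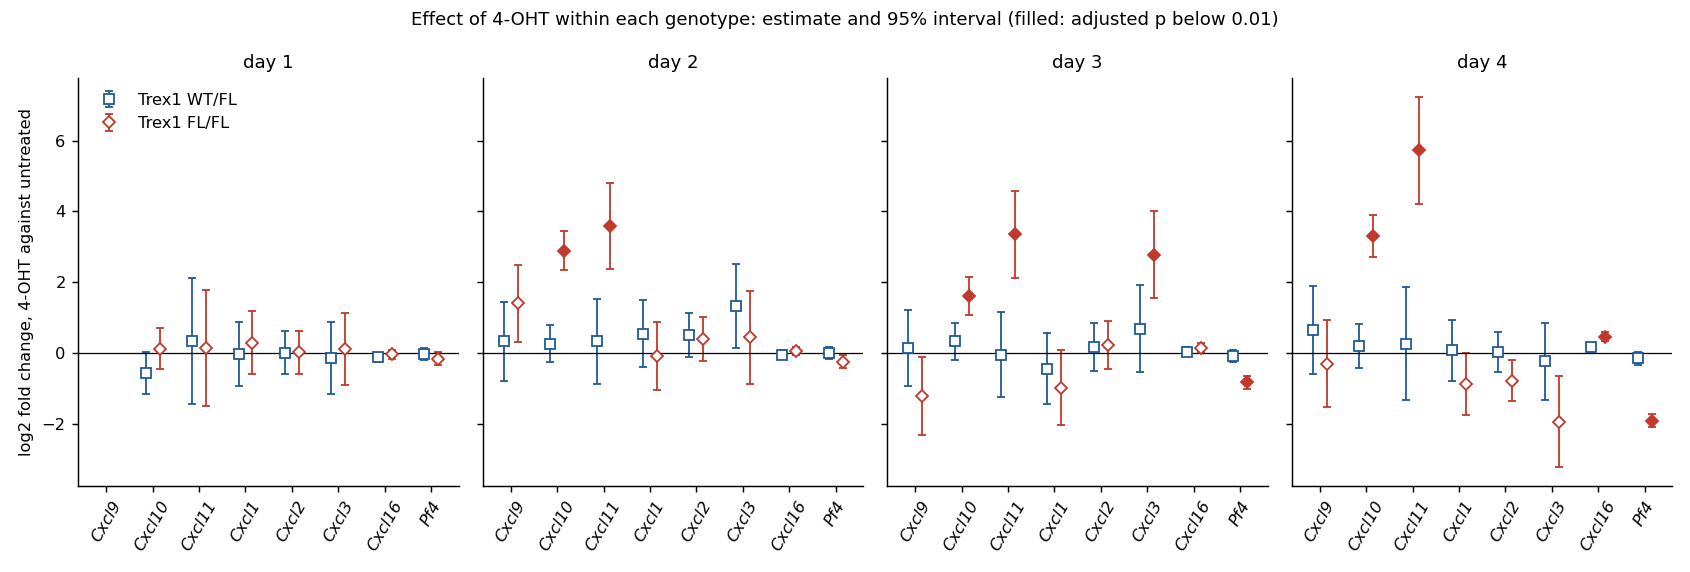
Log2 fold change of each CXC chemokine in 4-OHT-treated against untreated BMDMs of the same genotype, one panel per day, with Trex1 WT/FL and Trex1 FL/FL shown separately and bars for the 95% interval. No Trex1 WT/FL value passed; in Trex1 FL/FL cells Cxcl10 reached 2.89 on day 2 and 3.30 on day 4, and Cxcl9 is not drawn on day 1.

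The untreated genotypes served as a check on the mice themselves. Comparing Trex1 FL/FL with Trex1 WT/FL libraries that had no 4-OHT, 0 of 8 members passed by edgeR or DESeq2 on any day, and 0, 0, 0 and 1 had an unadjusted p below 0.05. That member was Cxcl16, higher by 0.17 on day 4. The log2 fold changes ran from -0.89 to 0.76, and 0%, 0%, 0% and 0.0655% of all genes passed.

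The change of the 4-OHT-treated genotype difference from one day to the next was also tested. From day 1 to day 2, 1 member passed (3.02% of all genes): the Cxcl10 difference grew by 2.09 (SE 0.37, edgeR adjusted p = 0.00204). The value missed the threshold without any of 3 libraries, namely Trex1 WT/FL replicate 2 of day 1 (adjusted p = 0.0152), Trex1 WT/FL replicate 1 of day 2 (adjusted p = 0.0108) and Trex1 FL/FL replicate 2 of day 1 (adjusted p = 0.0176). From day 2 to day 3, 0 members passed by edgeR, 1 by DESeq2 and 4 at an unadjusted p below 0.05, beside 0.905% of all genes.

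From day 3 to day 4, 4 members passed, where 3.7% of all genes did. The Cxcl10 difference grew by 2.31 (SE 0.37, adjusted p = 0.000539). In a fit of only the libraries compared this change was 2.33 and missed the threshold (edgeR adjusted p = 0.0126). The Cxcl10 group mean went from 97.5 to 15.1 CPM in control cells and from 247 to 190 CPM in deleted cells. The Pf4 difference changed by -0.94 (SE 0.12, adjusted p = 1.33e-05), with Pf4 group means of 77.1 and then 147 CPM in control cells and 44.0 and then 43.7 CPM in deleted cells. The Cxcl3 difference changed by -3.55 (SE 0.82, adjusted p = 0.00755), and it failed in 5 of the 8 fits that left out 1 library (adjusted p up to 0.0720, without Trex1 WT/FL replicate 1 of day 4). The Cxcl16 difference grew by 0.37 (SE 0.08, adjusted p = 0.00426) and failed in 7 of those 8 fits, with adjusted p from 0.0132 to 0.0250.

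Levels also changed with time in culture. In untreated Trex1 WT/FL cells, 6 of 8 members passed from day 1 to day 2, beside 38.4% of all genes. Cxcl9 went from 0 counts in both libraries to 33 in both, at least 9.84-fold higher against a floor of 3 counts per library. Cxcl10 rose by 2.54 (SE 0.27) from 21.9 and 18.7 CPM to 113 and 123 CPM. Cxcl11 rose by 2.41 (SE 0.76, adjusted p = 0.00999), a value lost with RLE size factors (adjusted p = 0.0109) and without 3 of the 4 libraries in turn. Those were day 1 replicate 1 (adjusted p = 0.0311), day 1 replicate 2 (adjusted p = 0.0882) and day 2 replicate 2 (adjusted p = 0.153). Cxcl3 fell by 2.99, while Cxcl16 rose by 0.72 and Pf4 by 0.75.

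From day 2 to day 3 in untreated Trex1 WT/FL cells, 2 members passed (34.9% of all genes), with Cxcl16 higher by 0.71 and Pf4 lower by 0.61. From day 3 to day 4, 5 members passed (12.3% of all genes). Cxcl2 rose 12.3-fold, from 8.20 and 7.38 CPM to 91.7 and 101 CPM (log2 3.63, SE 0.31, adjusted p = 3.03e-07). Cxcl1 rose by 2.03 (adjusted p = 0.00241) and Pf4 by 0.99. Cxcl10 fell by 2.57, from 56.5 and 98.8 CPM to 9.55 and 17.1 CPM, and Cxcl9 fell by 2.23. The Cxcl9 value missed the threshold without any 1 of the 4 libraries (adjusted p 0.0128 to 0.124). The Cxcl1 value missed it without day 3 replicate 2 (1.54, adjusted p = 0.0584) and without day 4 replicate 1 (1.40, adjusted p = 0.0774). In a fit of these 4 libraries alone the Cxcl10 value had an adjusted p of 0.120 and the Cxcl1 value one of 0.0755.

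The same steps were then read in 4-OHT-treated Trex1 FL/FL cells, without a test of the difference between these groups. From day 1 to day 2, 6 of 8 members passed (41.1% of all genes). Cxcl10 rose by 5.45 (SE 0.30) and Cxcl11 by 5.12 (SE 0.67), and Cxcl9 rose from 4 and 0 to 96 and 71 counts. The first 2 values are above the 2.54 and 2.41 of untreated Trex1 WT/FL cells, and no order is given for Cxcl9, which was near 0 counts on day 1 in both groups. Cxcl3 fell by 2.79, Cxcl16 rose by 0.82 and Pf4 by 0.50. From day 2 to day 3, 4 members passed (33.1% of all genes): Cxcl10 fell by 1.71, Pf4 fell by 1.13, Cxcl3 rose by 2.29 and Cxcl16 rose by 0.82. The Cxcl3 rise failed without day 2 replicate 1 (adjusted p = 0.0362), day 2 replicate 2 (adjusted p = 0.0137) or day 3 replicate 1 (adjusted p = 0.0101).

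From day 3 to day 4 in these cells, 4 members passed (9.33% of all genes). Cxcl2 rose by 2.58 (SE 0.30, adjusted p = 1.42e-05), Cxcl1 by 2.33 (adjusted p = 0.00179) and Cxcl16 by 0.32, while Cxcl3 fell by 2.90. Cxcl10 went from 269 and 225 to 200 and 179 CPM, a difference of -0.38 (SE 0.25, adjusted p = 0.349) that did not pass, and Pf4 was at 45.1 and 42.9 and then 45.8 and 41.6 CPM. The Cxcl1 rise failed without day 3 replicate 1 (2.08, adjusted p = 0.0322), day 3 replicate 2 (2.73, adjusted p = 0.0148) or day 4 replicate 1 (1.65, adjusted p = 0.0597). The Cxcl3 fall failed without day 4 replicate 2 (-2.29, adjusted p = 0.0374).

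To compare the classes, each library's CPM per kilobase of canonical transcript was summed over Cxcl9, Cxcl10 and Cxcl11 and over Cxcl1, Cxcl2 and Cxcl3. These sums are a description, with no test. Cxcl10 made up 98.3% to 99.9% of the interferon-driven sum, and Cxcl2 made up 68.3% to 96.4% of the ELR sum, so each sum largely follows 1 gene. On day 2 the interferon-driven sum was 41.6 and 36.0 times the ELR sum in 4-OHT-treated Trex1 FL/FL libraries and 4.65 to 9.55 times in the 6 others. On day 3 the ratios were 20.2 and 16.6 against 5.50 to 11.4. On day 4 they were 3.26 and 2.74 against 0.0965 to 0.201, so that the ELR sum was the larger in every control library and the interferon-driven sum in both deleted libraries.

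**Figure D5:**
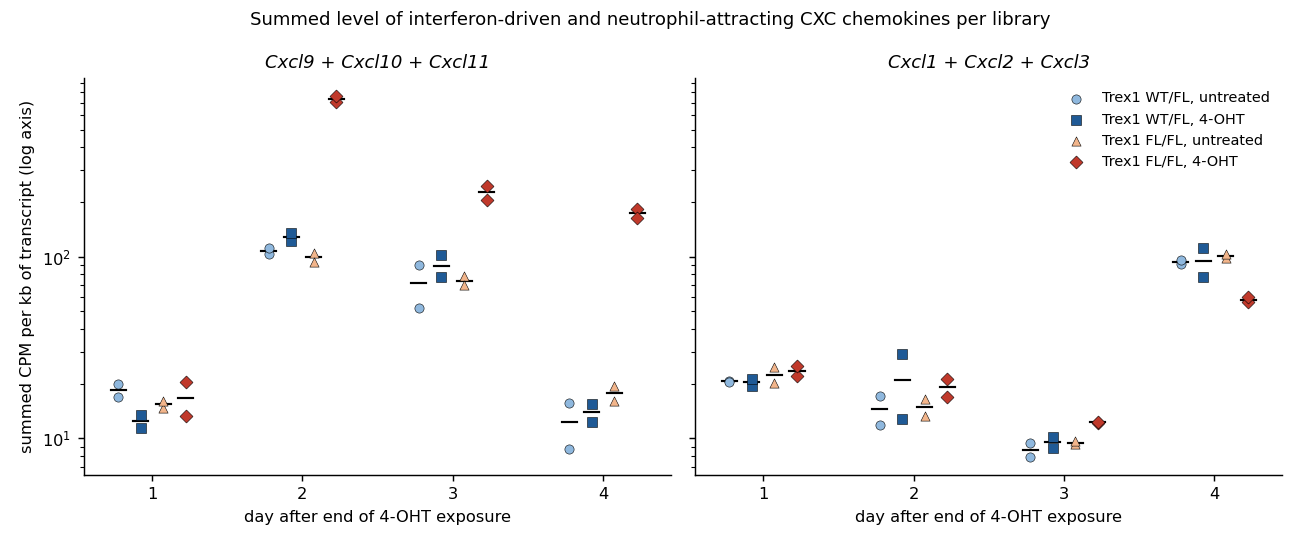
Summed level of the interferon-driven members (Cxcl9, Cxcl10, Cxcl11; left panel) and of the ELR members (Cxcl1, Cxcl2, Cxcl3; right panel) by day, in CPM per kilobase of transcript on a shared log axis. Each point is 1 library, coloured by group, and each short bar is a group mean; for the left sum over the right sum, on day 4 the 2 Trex1-deleted libraries have ratios of 3.26 and 2.74, and the 6 other libraries lie between 0.0965 and 0.201.

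Per kilobase of canonical transcript, the day 4 order of levels in 4-OHT-treated Trex1 FL/FL cells was Cxcl16 (195 ± 2.76 CPM per kilobase, SD, n = 2), Cxcl10 (172 ± 13.2), Cxcl2 (54.3 ± 4.59), Pf4 (29.3 ± 1.96), Cxcl1 (3.23 ± 1.72), Cxcl11 (0.874 ± 0.333), Cxcl3 (0.333 ± 0.261) and Cxcl9 (0.136 ± 0.0439). At the low end, neither the neighbours Cxcl11 and Cxcl3 nor the neighbours Cxcl3 and Cxcl9 differed beyond their spread. In 4-OHT-treated Trex1 WT/FL cells on that day the order was Cxcl16 (141 ± 1.68), Pf4 (98.3 ± 3.31), Cxcl2 (87.6 ± 21.7), Cxcl10 (13.7 ± 2.10), Cxcl1 (5.26 ± 1.73), Cxcl3 (1.16 ± 0.643), Cxcl9 (0.157 ± 0.0736) and Cxcl11 (0.0374 ± 0.0277). There, Pf4 and Cxcl2 did not differ beyond their spread. Cxcl10 thus stood second among the 8 members in the deleted cells and behind Cxcl16, Pf4 and Cxcl2 in the controls.

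Over the 32 libraries the log2 CPM of Cxcl10 and Cxcl11 had a Pearson r of 0.889, Cxcl1 and Cxcl2 one of 0.828 and Cxcl9 and Cxcl10 one of 0.713. Within the ELR class Cxcl3 had an r of 0.08 to Cxcl2, and its r to Cxcl9 was -0.77. These values carry no p, since libraries share groups, days and handling. The genes most like Cxcl10 were Pnp (r = 0.979), Nmi (r = 0.974) and Psme2 (r = 0.966), and those most like Cxcl11 were Slfn4 (0.944), Slco3a1 (0.939) and Nt5c3 (0.939). Cxcl3 was most like Ptgs2 (0.866) and Ptges (0.820), enzymes of prostaglandin E2 synthesis, followed by Jade1 (0.794). The closest genes were Plekha4 for Cxcl9 (0.967), Mdk for Cxcl1 (0.872), Wfikkn1 for Cxcl2 (0.925), Cd300c2 for Cxcl16 (0.993) and Snx3 for Pf4 (0.884). The median r of all genes tested to each member lay between -0.03 and 0.05.

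The rest of the CXC family was read in the same way. Of 7 other ligands, 3 passed the filter, and 1 of these, Ppbp (CXCL7, an ELR ligand of platelets), was lower in the 4-OHT-treated genotype comparison, by -2.79 on day 3 (adjusted p = 0.00380) and -3.38 on day 4 (SE 0.61, adjusted p = 7.71e-05). On day 4 its level was 0.146 ± 0.0501 CPM against 1.53 ± 0.270 CPM (SD, n = 2). Cxcl14, a ligand expressed in many tissues, held 3.95 ± 0.535 and 3.57 ± 0.124 CPM on that day and 2.10 to 27.2 CPM over the 32 libraries, and Cxcl13, a B cell attractant, held at most 20 counts in any library. Of 8 receptors, Cxcr2, Cxcr3 and Cxcr4 passed the filter. Cxcr4, the CXCL12 receptor, held 12.6 to 85.4 CPM over the libraries, Cxcr3 held 4.98 to 15.1 CPM and Cxcr2 at most 31 counts, and 0 of 3 passed the test on any day by edgeR or by DESeq2, with 1 at an unadjusted p below 0.05, on day 2.

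Interferon signalling genes moved in both directions in the 4-OHT-treated genotype comparison. Of 16 tested, 0 passed on day 1 by edgeR or DESeq2, with 1 at an unadjusted p below 0.05. On day 2, 7 of the 16 were higher and 1 was lower, where 8.17% of all genes passed in either direction. Day 3 had 6 higher and 3 lower (12.1% of all genes), and for day 4 these numbers were 8 and 3 (21.5%). On day 4 Irf7, a transcription factor that amplifies interferon genes, was higher by 2.38, and Stat2, which carries the interferon signal to the nucleus, by 1.99. Ifnb1, which encodes interferon-β, was sparse, with 0.378 ± 0.0647 CPM in deleted cells and 0 in both control libraries on that day. It passed in this comparison but not between 4-OHT-treated and untreated Trex1 FL/FL cells of day 4. The lower genes on day 4 were Ifnar1, Ifngr1 and Jak1, which encode receptor chains and a receptor-bound kinase. The median log2 fold change of the list on day 4 was 0.26, beside -0.04 over all genes tested.

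The other interferon-stimulated genes (ISGs) of the quantitative PCR panel, which also held Cxcl10, were 0 of 7 higher on day 1 and 7 of 7 on days 2, 3 and 4 by edgeR. Over all genes 0.0197%, 8.17%, 12.1% and 21.5% passed on days 1 to 4, in either direction. On day 1, 4 of the 7 ISGs had an unadjusted p below 0.05 and DESeq2 passed 1. For 4-OHT against untreated on that day, the list's median was -0.54 in Trex1 WT/FL cells and 0.19 in Trex1 FL/FL cells. In Trex1 WT/FL cells 4 of 7 had an unadjusted p below 0.05 and DESeq2 passed 1. In Trex1 FL/FL cells these numbers were 1 and 0. On day 4 the higher ISGs included Ifi44 (3.12), Ifit3 (2.93), Isg15 (2.91) and Oasl1 (2.88), and the list's median was 2.88 beside -0.04 over all genes. The panel was picked as ISGs, so its direction is not independent evidence. From day 3 to day 4, 7 of 7 were lower in untreated Trex1 WT/FL cells, where 12.3% of all genes passed. In 4-OHT-treated Trex1 FL/FL cells 0 of 7 passed, beside 9.33% of all genes. The same was seen for Cxcl10 in these groups. In the 4-OHT-treated Trex1 FL/FL cells DESeq2 also passed 0 of the 7, and 1 had an unadjusted p below 0.05. These groups differ in both genotype and treatment, and their steps were not tested against each other. The 4-OHT-treated genotype difference grew from day 3 to day 4 for 5 of 7 by edgeR, where 3.7% of all genes passed. Those were Oasl1, Usp18, Isg15, Oas1a and Ifit3, while Ifi44 and Irf7 did not pass. DESeq2 passed 7 of 7, beside 806 of all genes.

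Of 14 genes of NF-κB and its cytokine inducers, 0 passed on day 1 (0 also by DESeq2 and at an unadjusted p below 0.05), 2 were higher on day 2, 1 was higher and 1 lower on day 3, and 5 were higher on day 4. Over all genes 8.17%, 12.1% and 21.5% passed on days 2, 3 and 4. The list's edgeR counts on days 2 and 3 are near these shares. On each of these 2 days, 7 of the 14 had an unadjusted p below 0.05. DESeq2 passed 3 on each, beside 1473 and 2204 of all genes. For 4-OHT in Trex1 FL/FL cells, edgeR passed 3 as higher on day 2 (11.1% of all genes). On day 3, 2 were higher and 2 lower (15.7%), and Tnf was higher on both days. The day 4 genes were Rel, Nfkbib, Nfkbiz, Tnf and Il1b. Tnf was higher by 0.64 and the inhibitor gene Nfkbib by 0.48, and Il1b held 33.5 ± 4.00 CPM against 16.4 ± 0.663 CPM (log2 1.03). The median of the list on day 4 was -0.02, beside -0.04 over all genes.

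Among 5 regulators of mRNA decay, Zfp36 was higher on day 2, Zfp36l1 and Zfp36l2 were lower on day 3, and Zfp36l2 was lower on day 4 by -0.21. Of 3 proteases that act on chemokines, 1 passed: Adam17, a sheddase, was lower on days 3 and 4, on the latter by -0.40 (401 ± 18.9 against 528 ± 12.9 CPM). Adam10, which sheds CXCL16, held 191 ± 1.47 against 202 ± 5.73 CPM on day 4 and did not pass. These lists hold too few genes to read against the 8.17%, 12.1% and 21.5% of all genes that passed on days 2, 3 and 4.

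Markers were read beside these results. Of the 7 macrophage markers, 2 passed on day 2 (1 in each direction), 5 on day 3 (3 of them lower) and 3 on day 4 (2 of them lower). Over all genes 8.17%, 12.1% and 21.5% passed on these days, which is also the background for the other marker counts below. On day 4 Fcgr1 was higher by 2.27, and Csf1r and Itgam were lower by -0.28 and -0.35. The sum of all 7 on day 2 was 26245 to 28254 CPM in deleted libraries and 29019 to 33691 CPM in the 6 others. On day 3 it was 38258 to 38735 CPM in deleted libraries and 43754 to 47901 CPM in the others. The day 4 sums overlapped, at 28567 to 30511 CPM in deleted libraries and 28579 to 32433 CPM in the others. Lyz2 had the highest level of the 7, at 11134 to 33994 CPM over the libraries, and was lower by -0.38 on day 2 and -0.34 on day 3. Of 9 neutrophil markers, 8 were tested and 1 passed on 1 day: Csf3r, which macrophages also express, was higher by 0.49 on day 4. The summed neutrophil markers held 225 to 241 CPM in the deleted libraries of day 4 and 154 to 177 CPM in the others of that day, nearly all of it Csf3r, and Ly6g was at 0 counts in 26 of 32 libraries. Of 7 megakaryocyte and platelet markers, 2 were tested and 1, Ppbp, was lower on days 3 and 4, as Pf4 was. The other tested marker, Itga2b, did not pass, at -0.19 on day 3 (edgeR adjusted p = 0.926) and 0.11 on day 4 (adjusted p = 0.952). On day 4 the sum of all 7, Ppbp included, was 0.471 to 0.605 CPM in deleted libraries and 1.11 to 2.13 in the others. Gp1bb was at 0 in all 32 libraries, and Gp9 had 4 counts at most. None of 6 T and NK cell markers passed the filter. Of 4 dendritic cell markers and 3 fibroblast markers tested, 0 passed on any day by edgeR, and the summed level of either list was 2.67 CPM at most. The part of these markers in the chemokine differences was not tested.

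Overlapping genes limit some values. Cxcl10 and Cxcl11 overlap Art3 on the opposite strand, which held 0 to 15 counts in any library, and reads of such pairs cannot be told apart if strand was not used. Cxcl11 shares 2.66% of its 31-base words with 2864 other genes, and Cxcl10 and Pf4 share none.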

How the data were processed

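The authors deposited 1 table of estimated counts for all 32 libraries: reads were quantified with Salmon against GRCm39 and collapsed to genes by tximport, as whole numbers without normalization. The Salmon version is not given in the sources used here, and the labels also list FastQC 11.9 and DESeq2 1.32. Gene identifiers were matched to GENCODE vM39 symbols (51048 of 54281, the unmatched ones holding 0.320% of counts). Groups were taken from the genotype, treatment and day labels.

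The counts were fitted with edgeR 4.0.16 in R 4.3.3: filterByExpr at a minimum count of 10 (15257 genes kept), TMM scaling, 16 group means, robust quasi-likelihood F tests with 16 residual degrees of freedom, and Benjamini-Hochberg adjustment over all genes tested. SE is the absolute log2 fold change over the root of F. Folds used a prior count of 0.125 and log2 CPM a prior count of 2. With 2 libraries a group, an exact permutation test cannot go below p = 0.333, so none was used. Intervals and floors cover counting error or the spread of these libraries only. The code was tested on simulated data.

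The 8 members, the lists and the tests were chosen with earlier results of these data known. Named genes were the 8 members, Trex1, up to 4 genes a list with the largest day 4 genotype difference after 4-OHT and, for each member, the 3 genes with the highest Pearson r over 32 libraries; overlapping genes, passing list members and markers were named beside them after their values were seen. Alternatives were RLE size factors, DESeq2 1.42.0, no filter, a minimum count of 50, fits of only the libraries compared, another prior count, another threshold, an interaction with untreated cells, and leaving out each library in turn. Promoter motifs were searched in windows read from GRCm39 at the start of the canonical GENCODE transcript of each gene. RefSeq promoters were used only to compare the starts. The Cxcl10 window was the same there, and those of Cxcl1, Cxcl2, Cxcl3, Cxcl9 and Pf4 were shifted. The windows of Cxcl11 and Cxcl16 had no match in RefSeq promoters.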

Additional observations from a re-analysis of the deposited data

Results flagged for a closer look

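The effect of 4-OHT differed between the genotypes for 3 members, by a test of the interaction in edgeR adjusted over all genes. For Cxcl10 the log2 effect in Trex1 FL/FL cells minus that in Trex1 WT/FL cells was 2.63 on day 2 (adjusted p = 9.54e-05) and 3.10 on day 4 (adjusted p = 2.32e-05). For Cxcl11 it was 3.40 on day 3 (adjusted p = 0.00862) and 5.46 on day 4 (adjusted p = 0.000788). The Cxcl11 value on day 4 uses an untreated Trex1 FL/FL group with 0 and 5 counts. For Pf4 the difference was -0.75 on day 3 (adjusted p = 0.000237) and -1.76 on day 4 (adjusted p = 1.22e-10). Pf4 on day 2 (-0.25, adjusted p = 0.306), Cxcl11 on day 2 (3.26, adjusted p = 0.0132), Cxcl10 on day 3 (1.29, adjusted p = 0.0300) and Cxcl16 on day 4 (0.30, adjusted p = 0.0120) did not pass. No ELR member passed this test on any day.

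The genotype difference in 4-OHT-treated cells changed between neighbouring days for 4 members. Cxcl10 gained 2.09 from day 1 to day 2 and 2.31 from day 3 to day 4. From day 3 to day 4 the change was -3.55 for Cxcl3, 0.37 for Cxcl16 and -0.94 for Pf4. The direction of the Cxcl3 difference itself turned between these days, from 1.77 to -1.78. The cause of these differences was not tested.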

How the results depend on the processing

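Of 498 alternative values for members that passed, 447 kept their direction and their side of the threshold, 51 kept the direction and missed the threshold, and 0 reversed; RLE size factors and a minimum count of 50 moved no count of members by over 1.5 times. Without a filter on low counts 26767 genes entered the fit, 1 member passed on day 1 between the 4-OHT-treated genotypes and 2 were called on day 3. Over all genes that fit passed 75 on day 1 and called 202 on day 3 between these genotypes. In that fit 1 member passed for 4-OHT in Trex1 WT/FL cells on each of days 1, 2 and 3. Over all genes 80, 102 and 267 passed there. For 4-OHT in Trex1 FL/FL cells 4 and 7 passed on days 2 and 4, beside 1941 and 3470 of all genes. Between untreated genotypes 1 passed on day 4. That fit also gave 3 for the change from day 2 to day 3, beside 538 of all genes. For untreated Trex1 WT/FL cells from day 2 to day 3 it gave 4, beside 5425 of all genes. The same fit passed 68 to 372 genes between untreated genotypes, where the filtered fit passed 0 to 10. With the interaction with untreated cells in place of the treated comparison, 1 member was called and 1 passed on day 2. Over all genes these numbers were 81 and 616. DESeq2 called 2 on day 3, passed 1 for the change from day 2 to day 3 and 7 in 4-OHT-treated Trex1 FL/FL cells from day 2 to day 3. Over all genes DESeq2 called 144 on day 3 and passed 324 and 5311 in the other comparisons. With the adjusted p threshold at 0.05 and no fold needed, 4 were called on day 3 and 5 on day 4. The number of all genes under that rule is not given here, so these counts have no background. In fits of only the libraries compared, the change from day 1 to day 2 passed for 0 and that from day 3 to day 4 for 2. Over all genes 496 and 434 passed for these changes. Those fits also passed 3 from day 3 to day 4 in untreated Trex1 WT/FL cells and 7 from day 2 to day 3 in 4-OHT-treated Trex1 FL/FL cells. Over all genes 1364 and 5295 passed for these steps. Cxcl11 did not pass their filter in some comparisons and has no value there. The cause of these moves was not tested.

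With 1 library left out, the lone library of its group is assumed to vary like the other groups. The numbers of all genes that passed or were called in such fits are not given here, so the member counts below have no background. On day 2 between the 4-OHT-treated genotypes 1 to 2 members were called and 1 to 2 passed, with 1 called without Trex1 WT/FL replicate 1. On day 3, 0 to 2 were called and 1 to 3 passed, with 0 called without Trex1 WT/FL replicate 1 and 2 without replicate 2. The change from day 1 to day 2 passed for 0 to 1 and that from day 3 to day 4 for 2 to 4, and untreated Trex1 WT/FL cells from day 3 to day 4 gave 3 to 4. The directions that reversed were all of values that did not pass. For the 4-OHT-treated genotypes on day 1, Cxcl11 was -0.21 with the interaction and ran from -0.57 to 0.67 with 1 library left out, Cxcl3 from -0.28 to 0.44 and Pf4 from -0.23 to 0.034 (0.030 in a second fit). On day 2 Cxcl1 ran from -0.40 to 0.10 and Cxcl2 from -0.59 to 0.69 (0.057 in a second fit). On day 3 Cxcl1 ran from -1.04 to 0.54, and on day 4 Cxcl9 from -0.62 to 0.37 (0.11 in a second fit). No paired analysis was possible because the labels give no replicate numbers that tie libraries of different groups together. Depth limits Cxcl9, Cxcl11 and Cxcl3, whose libraries held from 0 or 5 counts upward.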
